A study of Mus musculus with 16 samples.

Results

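Oct4 was mapped by ChIP-seq in mouse embryonic fibroblasts that were being reprogrammed with Oct4, Sox2 and Klf4, and its sites at day 1 were compared with those at day 5. A site is the summit of a called peak on chromosomes 1 to 19, X or Y. There were 8199 sites at day 1 and 4846 at day 5, out of 227116 summits in the 13 summit lists of the series, and 17 and 8 further summits of these lists lay on other sequences and were left out. A site counted as shared when a summit of the other day lay within 100 bp. By this rule 2012 day 1 sites were kept at day 5, a share of 24.5% (95% Wilson interval 23.6 to 25.5), and the remaining 6187 were lost. Of the day 5 sites, 2010 had been present at day 1, a share of 41.5% (40.1 to 42.9), and 2836 were gained.

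Both libraries came from OG2-MEFs, fibroblasts carrying a GFP reporter driven by Oct4 regulatory DNA, that had received pMX retroviruses for Oct4, Sox2 and Klf4 (the Oct4-SK cocktail). Days were counted from the switch into iCD1, a chemically defined medium, and the same Oct4 antibody was used on both days. Other libraries of the series are used below only to describe these sites. They include Oct4 at day 7 in the same cells, and the Oct4 antibody in cells given Oct4defSox2 (days 1 and 5) or Oct4S151M (day 1) in place of Oct4. Sox2 was mapped in 3 cocktails at days 1 and 5. The methods name 2 Sox2 antibodies and do not say which library each served. The Oct6 antibody was used in Oct6M151S-SK cells, at day 1 by the title and day 2 by another label. Each group had 1 library, so every interval below covers counting error among sites and not the variation between cultures. No p-value was computed, and day cannot be told apart from any other difference between the 2 libraries.

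Oct4 is a POU transcription factor that is required for pluripotency and is one of the classical reprogramming factors. As a monomer it reads the octamer. On the composite SoxOct element, which is found at many enhancers of pluripotent cells, Oct4 and Sox2 sit side by side, whereas the palindromic MORE is bound by pairs of POU proteins. In Oct4defSox2 the protein was altered so that it binds poorly side by side with Sox2, and Oct4S151M carries a residue of its relative Oct6 that favours pairing of the protein with itself on MORE.

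Matches to SoxOct without any mismatch to its consensus were rare at day 1 and mostly kept, and most of those found at day 5 were gained. They numbered 8 at day 1, a share of 0.0976% (0.0495 to 0.192), and 27 at day 5, a share of 0.557% (0.383 to 0.809). No exact match lay in the 16398 and 9692 windows taken 2 kb to each side of the sites. Of the 8 day 1 sites 7 were kept and 1 was lost, while 19 of the day 5 sites were gained. The share was 0.413 points higher (0.181 to 0.676) at day 5 when the day 1 list was held to its 4846 strongest summits, of which 7 held an exact match. This count was chosen after its values had been seen. The sequences below show the lost element, some of the kept ones and the highest-scoring of the gained ones, with their surroundings in GRCm38. They are read 5′ to 3′ on the strand of the element, with the exact SoxOct match in capitals.
Lost, 222255 bp from the start of Tex13c3, chrX:19259028-19259082, minus strand: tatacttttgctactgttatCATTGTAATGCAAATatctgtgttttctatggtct
Kept, 29046 bp from the start of Sox9, chr11:112811246-112811300, plus strand: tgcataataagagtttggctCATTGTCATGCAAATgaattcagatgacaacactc
Kept, 71 bp from the start of Gadd45g, chr13:51846552-51846606, minus strand: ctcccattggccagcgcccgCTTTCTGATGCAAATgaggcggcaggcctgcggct
Kept, intron of Galnt17, chr5:131177341-131177395, plus strand: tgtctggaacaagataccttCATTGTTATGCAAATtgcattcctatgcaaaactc
Kept, intron of March8, chr6:116397771-116397825, plus strand: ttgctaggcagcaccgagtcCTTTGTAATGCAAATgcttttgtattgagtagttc
Gained, intron of Ctnnd2, chr15:30205361-30205415, minus strand: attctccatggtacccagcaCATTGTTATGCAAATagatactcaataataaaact
Gained, 92426 bp from the start of Mtss1, chr15:59174366-59174420, plus strand: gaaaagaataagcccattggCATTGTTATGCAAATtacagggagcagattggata
Gained, intron of Fbxl17, chr17:63176596-63176650, minus strand: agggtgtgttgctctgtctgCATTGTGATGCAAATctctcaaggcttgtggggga
Gained, intron of Idua, chr5:108668679-108668733, minus strand: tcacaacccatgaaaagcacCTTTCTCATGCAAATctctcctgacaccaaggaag

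The score of a site is the −log10 of the p-value that the peak caller MACS2 gave its summit, unadjusted and not scaled between libraries. All 7 kept sites with an exact SoxOct match had a higher score at day 5, and also a higher percentile within their own day. Over all kept sites the score was higher at day 5 in 37.2% and the percentile in 44.0%, and over the 492 kept sites with any SoxOct match in 36.6% and 43.7%. At the Galnt17 site it went from 13.3 to 83.6, and at the site near Gadd45g, a gene of the growth arrest and DNA damage response, from 13.2 to 32.2. At the site downstream of Sox9, which encodes a Sox factor of cartilage and other lineages, the scores were 48.9 and 59.2. The 19 gained sites scored between 6.61 and 29.9 at day 5. Of these, 12 had an Oct4 summit at day 7, 12 an Oct4defSox2 summit at day 1 and 14 an Oct4S151M summit at day 1. None had a Sox2 summit in Oct4-SK cells at day 1, and 2 had one at day 5.

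How often a site was shared depended on its score. Lost sites had a median score of 10.2 and kept sites 18.3 at day 1, and at day 5 the medians were 13.5 for kept and 7.39 for gained sites. In the lowest decile of day 1 scores, 7.20% (5.62 to 9.17) of sites were kept, and in the highest decile 67.8% (64.5 to 70.9). The corresponding shares of day 5 sites already present at day 1 were 10.7% (8.27 to 13.8) and 88.5% (85.3 to 91). Of the 250 strongest day 5 sites, 231 were present at day 1 (92.4%, 88.4 to 95.1), and of the 250 strongest day 1 sites, 205 were present at day 5 (82.0%, 76.8 to 86.3).

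Sharing between lists of equal size was lower and changed little with the size of the list. The 250 strongest sites of each day had 99 sites in common (39.6%, 33.7 to 45.8). With 4846 of each day, which corresponds to a day 1 score of at least 9.70, 1671 were shared (34.5%, 33.2 to 35.8), leaving 3175 lost and 3175 gained sites. The intermediate sizes gave shares from 36.4% to 39.0%. At points exactly 10 kb to either side of the sites the shares were 0.0610% for day 1 sites and 0.103% for day 5 sites.

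**Figure D1:**
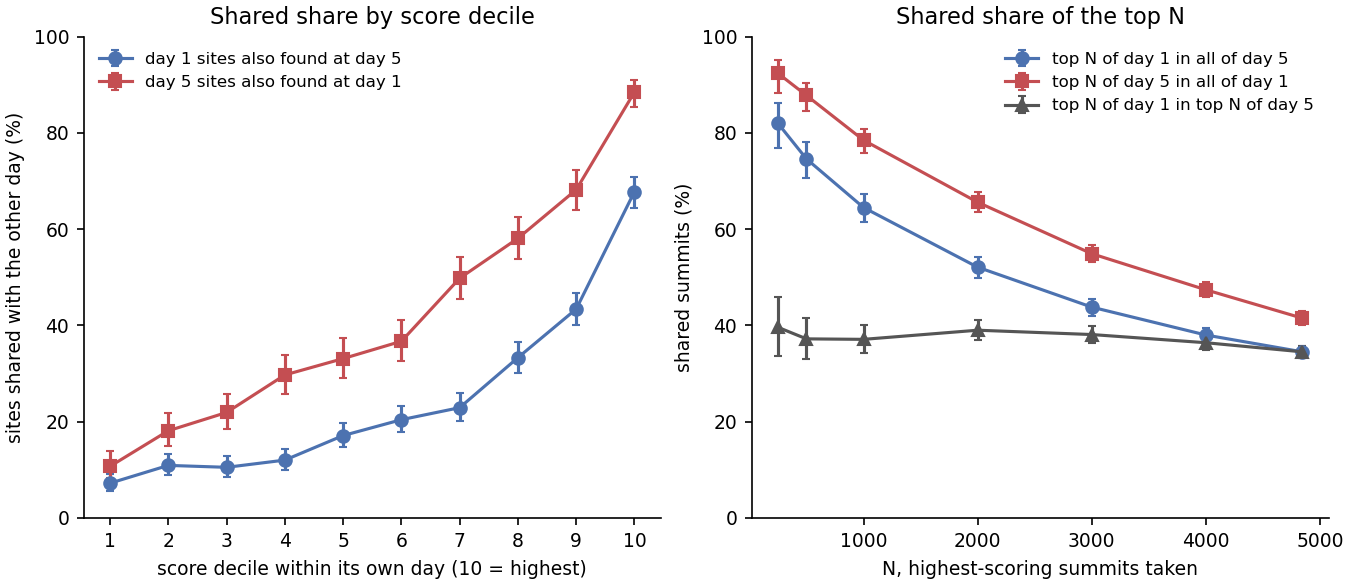
Left, share of sites with a summit of the other day within 100 bp, in percent, by decile of the score within the own day. Right, share of the N highest-scoring summits, in percent, that were found among all or among the N highest-scoring summits of the other day. Points are shares of sites in 1 library and bars are 95% Wilson intervals. The share of day 1 sites kept rises from 7.20% to 67.8% over the deciles, while the overlap of equally long lists stays between 34.5% and 39.6%.

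The 100 bp limit fell where few sites lay. Kept sites had a median distance of 23 bp between their summits, and 47 day 1 sites had their partner within the last 10 bp before the limit against 29 within the first 10 bp beyond it. Most lost sites were far from any day 5 summit: 5612 of all day 1 sites (68.4%) had none within 10 kb. For day 5 sites 2394 (49.4%) had no day 1 summit within 10 kb. The kept share was 19.9% (14.3 to 26.9) on chromosome X and 30.4% (25.8 to 35.6) on chromosome 7, the lowest and highest of the 20 chromosomes that held day 1 sites.

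Day 1 sites with a SoxOct or MORE match were kept more often than sites without any POU motif. Motifs were searched on both strands within 100 bp of the summit, allowing 2 mismatches for SoxOct and 1 for MORE and for MORE+1, which has 1 base more in its middle and is counted with MORE below, and none for the octamer ATGCAAAT. Set against 24.5% of all day 1 sites, 492 of 1236 sites with SoxOct were kept (39.8%, 37.1 to 42.6) and 380 of 857 sites with MORE (44.3%, 41.0 to 47.7). Without a POU motif it was 1082 of 5773 (18.7%, 17.8 to 19.8). These shares exceeded the last one by 21.1 points (18.2 to 24) and 25.6 points (22.1 to 29.1). Sites with a motif also had higher scores, with medians of 13.2 for SoxOct and 15.0 for MORE against 10.5, and averaged within quartiles of the day 1 score the differences were 15.0 points (12.3 to 17.7) and 16.3 points (12.9 to 19.7). The exact octamer holds the last 8 bases of SoxOct, so many octamer sites are SoxOct sites too. The 405 octamer sites without SoxOct or MORE were kept in 20.7% (17.1 to 25), a difference of 2.00 points (−1.81 to 6.33) from sites with no POU motif.

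The retention of SoxOct and MORE sites differed less when averaged within quartiles of the day 1 score. With SoxOct alone the kept share was 40.0% (37.3 to 42.9), with MORE alone it was 45.1% (41.6 to 48.6), a difference of 5.06 points (0.592 to 9.53). Within score quartiles it was 1.57 points (−2.63 to 5.77), within counting error. Scores still varied inside a quartile. The highest ran from 17.5 to 310.8, with medians of 29.3 for MORE alone and 27.0 for SoxOct alone. The 72 sites that held both elements were kept in 36.1% (26 to 47.6), and their difference from SoxOct alone, −3.92 points (−14.4 to 7.94), was within counting error.

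Retention followed how closely SoxOct and MORE matched their consensus, MORE being taken here without MORE+1. Sites with an exact MORE were kept in 64.2% (55.8 to 71.8; n = 134), and those with 1 mismatch in 33.7% (29.7 to 38.0; n = 498). The difference of 30.4 points (21 to 39.1) was nearly as large within score quartiles, 28.4 points (16.3 to 40.4). For MORE+1 the shares were 68.8% (51.4 to 82.0; n = 32) for exact sites and 52.9% (46.1 to 59.6; n = 206) with 1 mismatch, with overlapping intervals, and in the highest score quartile the order was the other way, 76.9% and 82.6%. In the lowest score quartile 4 of 8 exact MORE sites were kept, against 12 of 76 with 1 mismatch. SoxOct sites with 1 mismatch were kept in 54.2% (46.6 to 61.5; n = 168), 17.0 points (8.90 to 24.9) more than the 37.2% (34.3 to 40.1; n = 1060) with 2 mismatches, and 13.7 points (6.17 to 21.3) more within score quartiles. An exact MORE has 3 spellings when both strands are read as one, shown here in capitals because each is the whole element.
MORE, 53 of 78 day 1 sites kept: ATGAATATGCAT
MORE, 10 of 12 day 1 sites kept: ATGAATATTCAT
MORE, 23 of 44 day 1 sites kept: ATGCATATGCAT
Their kept shares of 67.9% (57.0 to 77.3), 83.3% (55.2 to 95.3) and 52.3% (37.9 to 66.2) had overlapping intervals.

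**Figure D2:**
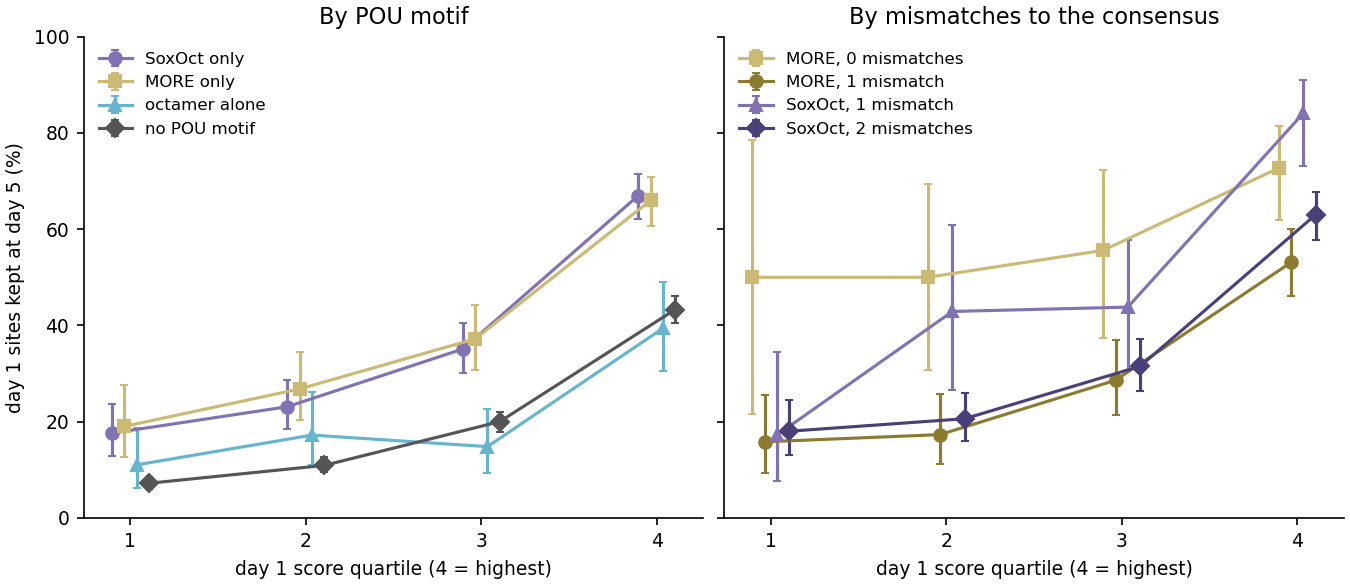
Share of day 1 sites kept at day 5, in percent, by quartile of the day 1 score, for sites with SoxOct alone, MORE alone, the octamer alone or no POU motif (left) and for MORE and SoxOct by number of mismatches (right). Bars are 95% Wilson intervals over sites of 1 library. In the highest quartile 67.0% of SoxOct sites, 66% of MORE sites and 43.3% of sites without a POU motif were kept, and exact MORE sites stay at or above 50.0% in every quartile.

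The 3 classes differed in which elements they held. SoxOct was present at 12% (11.2 to 12.9) of lost, 24.5% (22.6 to 26.4) of kept and 16.4% (15.0 to 17.8) of gained sites, with 1.04%, 1.22% and 1.02% in windows of the same length 2 kb away. The gained share exceeded the lost one by 4.34 points (2.78 to 5.95). MORE was present at 7.71% (7.07 to 8.40) of lost, 18.9% (17.2 to 20.7) of kept and 8.78% (7.79 to 9.88) of gained sites. Gained and lost sites differed by 1.07 points (−0.134 to 2.34) in MORE, within counting error, but by 1.69 points in exact MORE or MORE+1 alone, and exact matches made up 31.7% of the MORE matches at gained and 12.7% at lost sites, MORE+1 left aside. No POU motif was found at 75.8% of lost, 53.8% of kept and 71.4% of gained sites. Allowing 1 more mismatch turned both differences between gained and lost sites round, to −5.64 points for SoxOct and −9.28 points for MORE. Lost sites were also richer in A and T, with a median GC content of 37.3% against 43.3% for gained sites, and the part of base composition in the looser matches was not tested.

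Motifs of other factors also differed between the classes. AP-1, the dimer of Jun and Fos proteins that marks fibroblast enhancers, reads TGACTCA or TGAGTCA, and this was found at 10.6% (9.86 to 11.4) of lost, 13.5% (12 to 15.0) of kept and 13.5% (12.3 to 14.8) of gained sites, against 3.22%, 3.55% and 4.06% 2 kb away. Among day 1 sites without a POU motif, those with AP-1 were kept in 24.9% (21.7 to 28.2) and those without it in 17.9% (16.9 to 19), a difference of 6.92 points (3.63 to 10.5) and of 6.75 points (3.35 to 10.1) within score quartiles. The motif of Tead factors, which act with YAP in fibroblast and other enhancers (GAATTCCA, GAATTCCT, ACATTCCA, ACATTCCT, AAATTCCA, AAATTCCT, GCATTCCA or GCATTCCT), was at 12.4% of lost, 20.5% of kept and 15.4% of gained sites, with 8.29%, 7.31% and 8.16% 2 kb away. The Runx motif (TGTGGTCA, TGTGGTCT, TGTGGTTA or TGTGGTTT) was at 6.43%, 10.8% and 8.36% of the 3 classes. The motif of Klf4 and its relatives (GGGCGGGGC, GGGCGTGGC, GGGTGGGGC or GGGTGTGGC) was scarcer, at 1.07% (0.839 to 1.35) of lost, 2.53% (1.93 to 3.32) of kept and 3.49% (2.88 to 4.23) of gained sites. Gained sites exceeded lost sites by 2.94 points (1.49 to 4.44) for AP-1 and by 2.42 points (1.74 to 3.2) for the Klf motif. In windows 2 kb from lost, kept and gained sites the Klf motif was at 0.719%, 1.12% and 1.13%. Beyond 1 kb of an annotated transcription start it was at 0.981% of lost and 2.75% of gained sites. Its letters are nearly all G and C, and the part of base composition in its difference was not tested. A match is a string of letters in the window, and binding by these factors was not measured here.

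**Figure D3:**
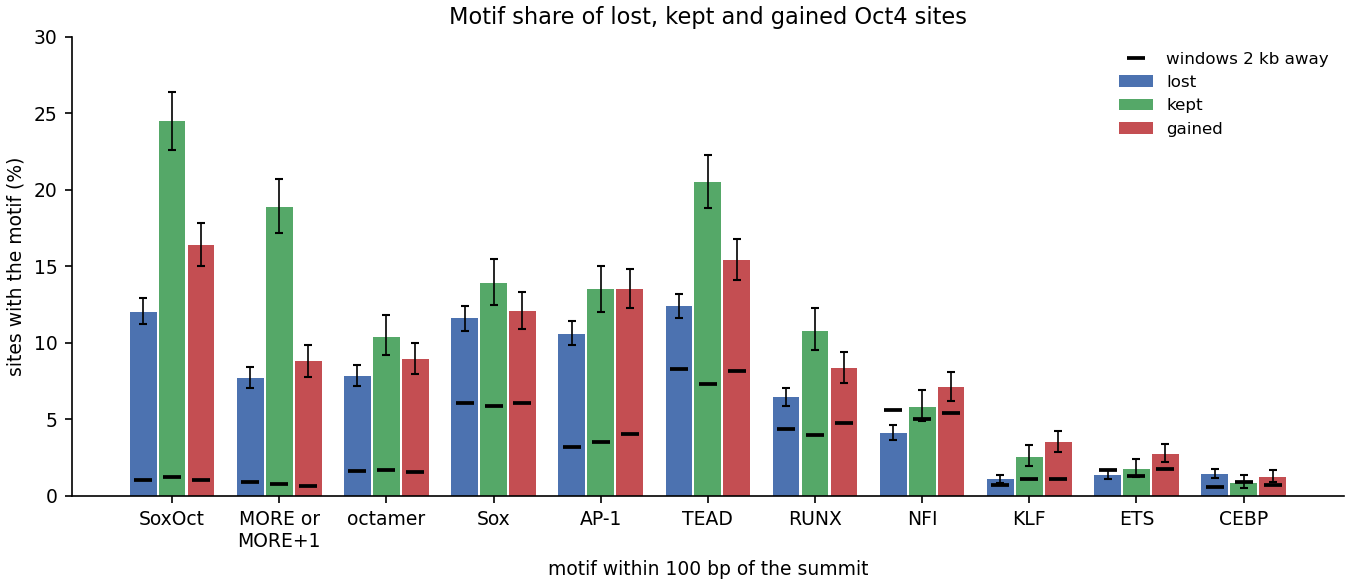
Share of lost, kept and gained sites, in percent, with each of 11 motifs within 100 bp of the summit. Error bars are 95% Wilson intervals over sites of 1 library, and black dashes give the share in windows 2 kb to each side. SoxOct stands at 12%, 24.5% and 16.4%, MORE or MORE+1 at 7.71%, 18.9% and 8.78%, and the dashes for both lie between 0.635% and 1.22%.

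Gained sites were nearer to promoters than lost sites. Within 1 kb of an annotated transcription start lay 275 lost (4.44%, 3.96 to 4.99), 145 kept (7.21%, 6.16 to 8.42) and 328 gained sites (11.6%, 10.4 to 12.8), so that gained exceeded lost sites by 7.12 points (5.87 to 8.44). In introns lay 48.2%, 50.8% and 49.4% of the 3 classes, and in exons 3.38%, 3.58% and 6.24%. Kept promoter sites differed in sequence from lost and gained ones. Kept promoter sites held MORE in 31.0% (24.1 to 39.0) and SoxOct in 26.2% (19.7 to 33.9) and had no POU motif in 37.2% (29.8 to 45.3). Gained promoter sites held MORE in 4.88% (3.02 to 7.78) and SoxOct in 11.9% (8.82 to 15.8), had no POU motif in 79.9% (75.2 to 83.9), and had a median GC content of 52.2% and a median score of 6.70. Lost promoter sites held MORE in 7.27% (4.76 to 11) and SoxOct in 10.5% (7.44 to 14.7) and had no POU motif in 77.1% (71.8 to 81.7), intervals that overlap those of gained promoter sites, with a median GC content of 42.3%. A day 1 promoter site was kept in 34.5% (30.1 to 39.2), against 24% (23.1 to 25) of other sites, and the difference of 10.5 points (6.03 to 15.3) was 12.7 points (8.18 to 17.3) within score quartiles.

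A group of lost sites lay on tRNA genes, the short genes that RNA polymerase III transcribes. Of the 403 nuclear tRNA genes that RefSeq annotates on these chromosomes, 31 had a day 1 site within 100 bp of the gene and 1 had a day 5 site. They accounted for 32 lost sites (0.517%, 0.367 to 0.729), 0 of 2012 kept sites (0 to 0.191%) and 1 of 2836 gained sites (0.0353%, 0.00622 to 0.199). The 32 lost sites scored 4.16 to 17.3 with a median of 8.16, and 0 held a POU motif. Of them 9 lay in the large tRNA and histone gene cluster of chromosome 13, near Btn1a1 and Abt1. An Oct4S151M summit of day 1 was found at 2 of these 32 sites and an Oct4defSox2 summit of day 1 at 2. In the other lists the share of summits at tRNA genes was between 0% and 0.193%, the highest in Oct4defSox2 at day 5 with 2 of 1034. This grouping was chosen after its sites had been seen.

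The other Oct4 library of the same cells, day 7, was not used to define the classes. It had a summit at 791 of the 2012 kept sites (39.3%, 37.2 to 41.5), at 426 gained sites (15.0%, 13.8 to 16.4) and at 277 lost sites (4.48%, 3.99 to 5.02), against 0.0183% and 0% at points 10 kb from day 1 and day 5 sites. Among sites with SoxOct these shares were 59.1%, 38.1% and 11.2%, and among sites with MORE 35.8%, 14.9% and 3.98%. With kept sites taken at their day 5 summits (39.6%), kept and gained sites differed by 24.5 points (22.0 to 27.0). Within quartiles of the day 5 score they differed by 10.3 points (7.57 to 12.9). Thus 4.48% of the lost sites had an Oct4 summit again at day 7.

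Many gained sites had a summit at day 1 in cells given a mutant Oct4. An Oct4S151M summit of day 1 lay at 1242 gained sites (43.8%, 42.0 to 45.6) and an Oct4defSox2 summit of day 1 at 994 (35%, 33.3 to 36.8), and 1559 (55%, 53.1 to 56.8) had at least 1 of them. Those lists are longer than that of Oct4, with 101170 and 31070 summits, and at points 10 kb from day 5 sites the shares were 1.02% and 0.227%. Gained sites with MORE had an Oct4S151M summit in 93.6%, those with SoxOct in 64% and those without a POU motif in 33.0%. The gained sites found in neither mutant at day 1 numbered 1277, with a median score of 6.03 against 9.46 for the others, and 13.9% of them held a POU motif against 40.7%. The rise with score was steep: Oct4S151M was present at 25.2% of gained sites in the lowest quartile of day 5 scores and at 78.5% in the highest.

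Lost and kept sites were also found in those libraries. Oct4defSox2 had a day 1 summit at 48.9% (47.6 to 50.1) of lost and 83.9% (82.3 to 85.5) of kept sites, a difference of 35.1 points (33.0 to 37.0) and of 28.0 points (25.4 to 30.6) within score quartiles. Oct4S151M had a summit at 73.6% (72.5 to 74.7) of lost and 92.9% (91.7 to 94.0) of kept sites. The kept share was higher by 19.4 points (17.7 to 20.9), which was 12.9 points (10.8 to 15.0) within score quartiles and 9.03 points with equal numbers of summits. In Oct4defSox2-SK cells at day 5, a list of 1038 summits, the shares were 0.857% of lost, 17.2% of kept and 5.85% of gained sites. Taken at their day 5 summits (17.3%), kept exceeded gained sites by 11.5 points (9.62 to 13.4), but by 2.83 points (1.04 to 4.63) within quartiles of the day 5 score. With MORE the shares of lost, kept and gained sites were 3.35%, 42.4% and 23.7%, and with SoxOct 0.134%, 7.72% and 1.72%. In all, 891 lost sites (14.4%) had no summit in any of the 11 other lists, against 30 kept (1.49%) and 1040 gained sites (36.7%). The longest of these lists, Oct4S151M with 101170 summits and Oct4defSox2 with 31070, are of day 1. Lost and gained sites were therefore not set against lists of equal length from their own day.

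Sox2 in the same cells was found about as often at lost as at kept sites on day 1. A Sox2 summit lay at 19.4% (18.5 to 20.4) of lost and 21.1% (19.4 to 23.0) of kept sites. The difference of 1.68 points (−0.319 to 3.76) was within counting error, and within score quartiles it had the other sign, −2.24 points (−4.42 to −0.0531). Gained sites had a Sox2 summit of day 1 in 6.17% (5.34 to 7.12). SoxOct sites with a Sox2 summit at day 1 were kept in 47.5% (41.6 to 53.3) and those without one in 37.6% (34.6 to 40.7), a difference of 9.86 points (3.27 to 16.5) that was 1.16 points (−5.01 to 7.34) within score quartiles. Their median day 1 scores were 16.3 and 12.5. For MORE sites the kept shares were 35.7% (26.3 to 46.4) with and 45.3% (41.8 to 48.8) without Sox2, a difference of −9.56 points (−19.6 to 1.65), within counting error, and of −10.2 points (−20.2 to −0.170) within score quartiles.

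At day 5 the pattern of Sox2 was different. Sox2 of day 5 lay at 4.93% (4.42 to 5.50) of lost, 14.7% (13.2 to 16.3) of kept and 6.24% (5.41 to 7.19) of gained sites. The gained share minus the kept share was −8.44 points (−10.3 to −6.68), and −7.72 points (−9.87 to −5.58) within quartiles of the day 5 score. Among SoxOct sites the shares were 5.78%, 18.9% and 7.33%. The Sox2 list held 15222 summits at day 1 and 5832 at day 5, so the 2 days differ in yield. They may also differ in the Sox2 antibody used, and their shares are given side by side. Oct6M151S, mapped with the Oct6 antibody and called down to a lower score than the other lists, had a summit at 8.07% of lost, 9.29% of kept and 2.40% of gained sites.

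**Figure D4:**
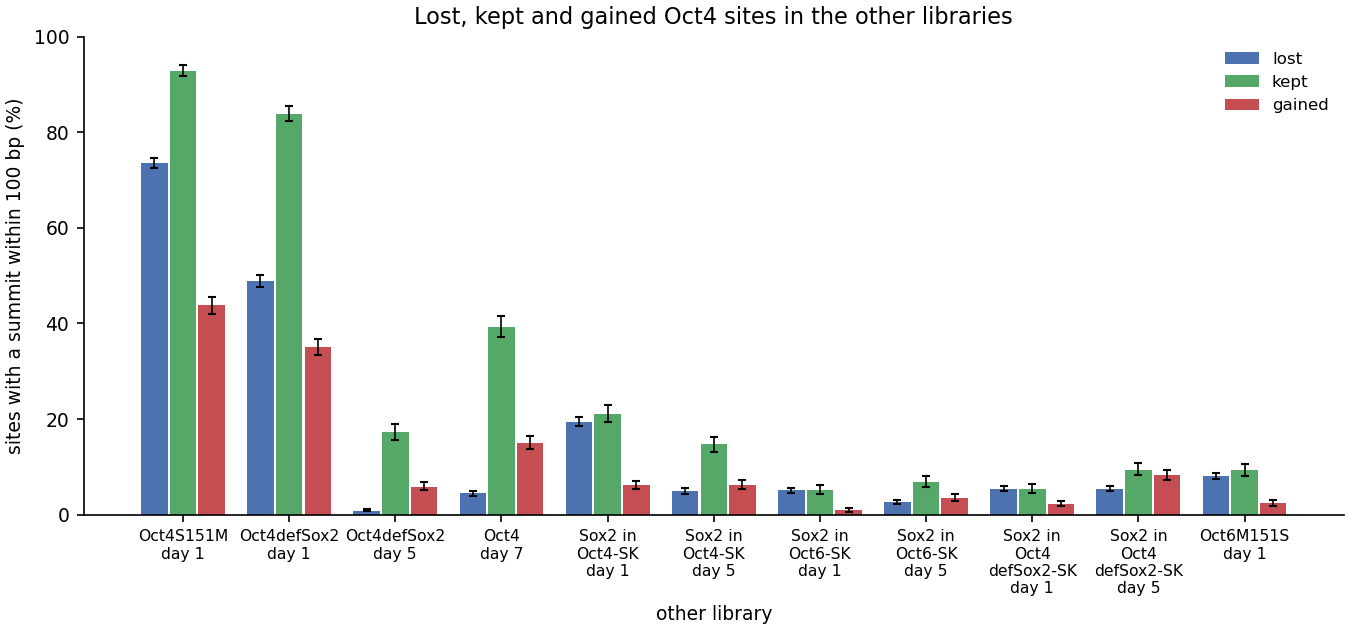
Share of lost, kept and gained sites, in percent, with a summit of each of the 11 other libraries within 100 bp. Error bars are 95% Wilson intervals over sites, and each library is 1 sample. The bars for Oct4S151M at day 1 stand at 73.6%, 92.9% and 43.8% and those for Oct4 at day 7 at 4.48%, 39.3% and 15.0%, whereas Sox2 of day 1 in Oct4-SK cells stands at 19.4%, 21.1% and 6.17%.

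Scores of kept sites at the 2 days were loosely related. Over the 2012 kept sites the Spearman correlation of the scores was 0.384, a description of sites that share their 2 libraries. A percentile here is the rank of a score within its own day. It was higher at day 5 for 886 of all kept sites (44.0%), and by motif for 53.1% of the 354 kept sites with MORE alone, for 44.6% of the 466 with SoxOct alone and for 40.5% of the 1082 without a POU motif. The share for SoxOct minus that for MORE was −8.47 points (−15.3 to −1.57). At promoters it was higher at day 5 for 95 of 145 kept sites (65.5%).

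**Figure D5:**
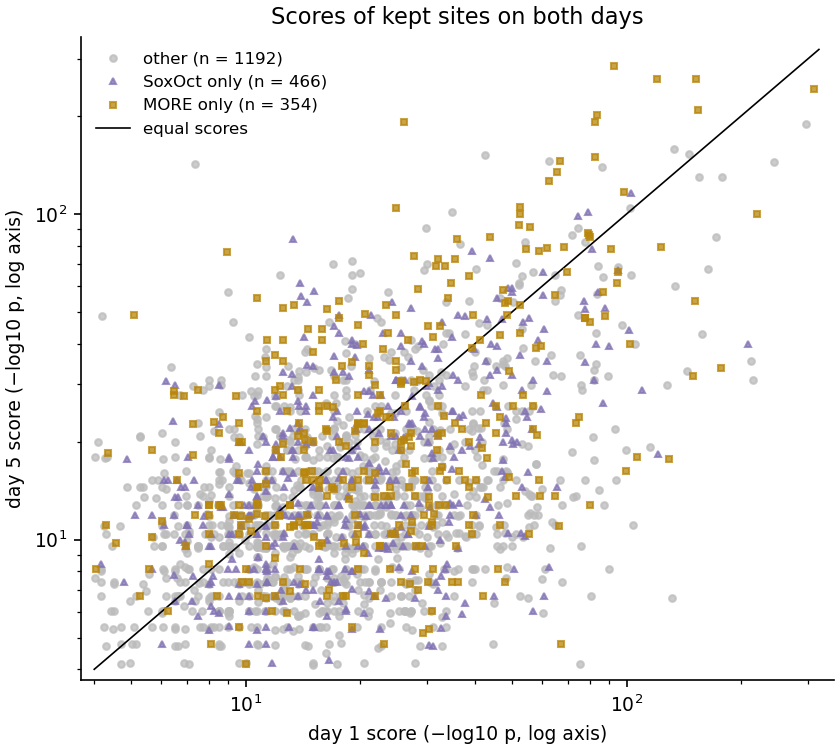
Score of each of the 2012 kept sites at day 1 (horizontal) and day 5 (vertical), in −log10 p on log axes, for sites with MORE alone (n = 354), SoxOct alone (n = 466) and the rest (n = 1192). The line marks equal scores, which are not scaled between libraries. The points scatter widely about the line, with a Spearman correlation of 0.384.

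Kept sites were ranked by the mean of their 2 scores, and of the first 5, 3 held a MORE with 1 mismatch. First in rank was a site in an intron of Kremen1, which encodes a receptor for Dickkopf inhibitors of Wnt signalling, with 310.8 at day 1 and 242.3 at day 5. The site in an intron of Crlf2, the receptor subunit for the cytokine TSLP, scored 152.6 at day 1 and 259.2 at day 5. The one 77 bp from the start of Rnf169, which encodes a ubiquitin-binding protein of the DNA damage response, scored 120.2 and 259.2. The Crlf2 and Rnf169 sites had summits in Oct4defSox2 at day 1 (508.9 and 531.8) and day 5 (194.0 and 289.9), and none in any Sox2 library. An intronic site of Pde4d, a cAMP phosphodiesterase gene, held an octamer and scored 295.9 and 188.7, and an intronic site of Celf2, a splicing factor gene, held no POU motif and scored 244.3 and 143.9. The first 3 kept SoxOct sites by this mean were in an intron of the bile acid receptor gene Nr1h4 (209.0 at day 1 and 40.0 at day 5), 18351 bp from the start of Klf13, a Klf family gene (103.0 and 115.9), and in an intron of Shc3 (79.0 and 101.5). Sox2 had a summit at the last 2 on both days. The elements of these sites are shown in capitals.
Crlf2, MORE with 1 mismatch, chr5:109558424-109558475, plus strand: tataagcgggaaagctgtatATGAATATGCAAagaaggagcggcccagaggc
Rnf169, MORE with 1 mismatch, chr7:99980493-99980544, plus strand: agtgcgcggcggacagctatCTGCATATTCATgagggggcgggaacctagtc
Klf13, SoxOct with 1 mismatch, chr7:63957227-63957281, plus strand: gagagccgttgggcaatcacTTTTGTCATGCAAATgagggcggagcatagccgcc
Shc3, SoxOct with 2 mismatches, chr13:51491831-51491885, minus strand: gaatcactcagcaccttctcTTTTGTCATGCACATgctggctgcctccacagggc

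Among gained sites the 2 highest scores were at exact MORE elements. A site 24850 bp from the start of Cpeb4, which encodes a regulator of mRNA polyadenylation, scored 139.6 at day 5, and one 217193 bp from Zfp36l1, which encodes an mRNA decay factor, scored 68.4. Oct4defSox2 and Oct4S151M had day 1 summits at both, with 203.4 and 578.5 at the first and 46.0 and 327.6 at the second, and Oct4 had a day 7 summit at both (51.2 and 33.4). The third MORE site in rank, 206299 bp from Kirrel3, scored 53.5. A site in an exon of H2-Eb2 and one 68622 bp from the start of Irx6 scored 61.3 each, and one 141 bp from the start of the lens crystallin gene Cryba2 scored 55.8, with no POU motif at any of the 3. The Irx6 site scored 93.3 at day 7 and 9.63 for Sox2 of day 5. The strongest gained SoxOct sites lay 26500 bp from Fam209, 19664 bp from Mamdc2 and 47428 bp from Prr5, with day 5 scores of 48.7, 47.9 and 45.5, and all had Oct4 at day 7 (56.3, 41.1 and 92.3). Their elements are printed with the number of mismatches of each.
Cpeb4, MORE with 0 mismatches, chr11:31847329-31847380, plus strand: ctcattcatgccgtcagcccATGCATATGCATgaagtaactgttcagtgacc
Zfp36l1, MORE with 0 mismatches, chr12:79895771-79895822, plus strand: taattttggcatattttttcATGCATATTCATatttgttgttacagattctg
Kirrel3, MORE with 0 mismatches, chr9:34279798-34279849, plus strand: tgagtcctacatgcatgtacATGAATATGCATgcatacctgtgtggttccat
Fam209, SoxOct with 2 mismatches, chr2:172499009-172499063, minus strand: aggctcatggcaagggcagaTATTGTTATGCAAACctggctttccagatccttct
Mamdc2, SoxOct with 1 mismatch, chr19:23468054-23468108, plus strand: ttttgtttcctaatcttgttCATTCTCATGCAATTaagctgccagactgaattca
Prr5, SoxOct with 1 mismatch, chr15:84622204-84622258, minus strand: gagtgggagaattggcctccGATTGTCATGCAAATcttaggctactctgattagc

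The strongest lost sites lay in introns of Slc10a7, Sema6d, Zdhhc14 and Mzt1 and in an exon of Abca8b, with day 1 scores from 92.1 to 164.7. All 5 had an Oct4S151M summit at day 1, with scores from 157.0 to 1113.6, and 3 an Oct4defSox2 summit. None had an Oct4 summit at day 7. The strongest lost SoxOct sites besides the one in Slc10a7 were in introns of Dop1b and Sema6d, at 89.7 each, and both had 2 mismatches. The lost elements differ from the exact ones above as printed here.
Zdhhc14, MORE with 1 mismatch, chr17:5641328-5641379, plus strand: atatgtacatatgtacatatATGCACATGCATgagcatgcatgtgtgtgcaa
Dop1b, SoxOct with 2 mismatches, chr16:93771935-93771989, plus strand: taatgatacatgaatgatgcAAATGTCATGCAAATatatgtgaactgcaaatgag
Sema6d, SoxOct with 2 mismatches, chr2:124606159-124606213, plus strand: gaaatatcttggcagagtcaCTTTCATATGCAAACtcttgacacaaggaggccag

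Some kept sites stood near opposite ends of the 2 ranked lists, which differ in length and yield and come from 1 library each. The largest rises in percentile were in an intron of Emc2, from a score of 4.2 to 48.7, 440 bp from the start of the zinc finger gene Zfp384, from 5.09 to 49.1, and in an intron of Ppp2r2b, from 4.08 to 19.9. In percentiles these were rises from 1.5 to 96.9, from 5.87 to 97.1 and from 0.720 to 84.6. The largest falls in percentile were in an intron of Ranbp9, from 75.4 to 4.16, at a site 579327 bp from Nr2f2, from 67.1 to 4.78, and at one 222567 bp from Got2, from 44.5 to 4.78. The Nr2f2 site shows that an exact MORE could fall too, although Oct4defSox2 scored 579.5 there at day 1 and 117.1 at day 5.
Zfp384, MORE+1 with 0 mismatches, chr6:125008756-125008808, plus strand: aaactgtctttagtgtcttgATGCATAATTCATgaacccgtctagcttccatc
Nr2f2, MORE with 0 mismatches, chr7:69781219-69781270, plus strand: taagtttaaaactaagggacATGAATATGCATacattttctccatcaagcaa

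Sites were next assigned to coding genes with a start within 50 kb. Of 21911 coding genes, 17.5% had a lost site, 8.46% a kept site and 13.2% a gained site. In a list of 34 naive pluripotency genes, 11 had a lost site, 11 (32.4%) a kept site and 7 (20.6%) a gained site. Kept sites lay near Pou5f1, Tfcp2l1, Dppa3, Gdf3, Tet1, Tet2, Fbxo15, Lefty1, Lefty2, Tead4 and Rif1. Upstream of Pou5f1, the gene of Oct4, a SoxOct site 1975 bp from the start scored 44.7 at day 1 and 26.2 at day 5 and had Sox2 on both days. At Tet2, which encodes a DNA demethylation enzyme, a MORE site at a start in an exon scored 27.7 and 74.2, and a site 596 bp from Rif1, which encodes a telomere and replication timing factor, scored 19 and 58.8. The neighbours Lefty1 and Lefty2, which encode inhibitors of Nodal signalling, shared a pair of kept SoxOct sites (17.4 and 24.8, then 19.6 and 19.4), both with an Oct4 summit at day 7. Dppa3 and Gdf3, germ cell and pluripotency genes on chromosome 6, likewise shared a kept site (18 and 31.0) and a gained SoxOct site (8.10 at day 5). The remaining gained sites lay near Sox2 (a SoxOct site 3643 bp from its start, 9.80), Jarid2 (a SoxOct site, 20.8), Tbx3 (7.39), Fgf4 (5.39) and Tet1 (5.39).

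Several lost sites at the reprogramming genes themselves lay in exons. One was in an exon of Pou5f1 (17.4), 2 in the exon of Sox2 (18.3 and 11.3) and 2 in exons of Klf4 (12.2 and 33.7), and none of the 5 had a POU motif. No kept or gained site lay inside these 3 genes. The cells carried retroviral copies of all 3 coding sequences, and summits in the exons cannot be told apart from signal at those copies. Without these 3 genes 8 of the remaining pluripotency genes had a lost site, among them Klf2 (21.8), Dppa5a (25.5), Jarid2 (19.7) and Tet2 (13.8).

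Of 38 mesenchymal and fibroblast genes, 15 (39.5%) had a lost site, 5 (13.2%) a kept site and 8 (21.1%) a gained site, and 10 had lost sites only. The highest lost scores were at a SoxOct site 16995 bp from Lum, a collagen-binding proteoglycan gene (78.4), near Col6a2 (29.5), near the intermediate filament gene Vim (25.5) and at a SoxOct site 260 bp from the N-cadherin gene Cdh2 (22.0). Kept sites lay near Col3a1, a fibrillar collagen gene (58.6 at day 1 and 11.9 at day 5), Meox1 (30.9 and 11.1), Twist1 (22.5 and 9.58), S100a4 (17.0 and 14.2) and Snai1 (7.00 and 11.1). The highest gained scores were near Prrx2 (20), Cdh2 (11.9), Zeb2 (9.58) and Tcf4 (7.06). For the 27 epithelial genes the counts were 6 lost, 1 kept and 3 gained, with the highest lost score near Krt8 (69.7) and the kept site near Rab25 (20.4 and 11.7).

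Smaller lists gave few sites. Their shares stand beside 17.5% of all coding genes for lost, 8.46% for kept and 13.2% for gained sites. Of 26 Sox and POU factor genes, 8 (30.8%) had a lost, 4 (15.4%) a kept and 6 (23.1%) a gained site. The kept site 685 bp from the start of Sox9, in an exon, scored 7.36 at day 1 and 142.6 at day 5 without a POU motif. It had an Oct4defSox2 summit at day 1, but no Oct4 summit at day 7 and no Sox2 summit in Oct4-SK cells. A SoxOct site 6642 bp from Sox21, a Sox gene of neural progenitors, scored 77.4 and 53.9 with Sox2 on both days. Besides the site with the exact SoxOct match 29046 bp from Sox9 printed above, kept sites lay near Sox11 (6.92 and 9.36) and Pou6f1 (9.60 and 10.4). Of 12 AP-1 genes, Fos (11.3) and Jun (4.16) had lost sites, none had a kept site, and Jund (28.9, an octamer site 129 bp from the start), Fosl2 (7.39) and Junb (4.78) had gained sites. Of 24 TGF-beta and BMP genes, 5 (20.8%) had a lost site, led by Smad2 (14.8) and Smad3 (13.8). In this list Tgfbr1 (19.7 and 11.1) and Nodal (13.9 and 14.5) had kept sites (8.33%), and 3 (12.5%) had gained sites. Of 24 early neural genes, 3 (12.5%) had a lost site, Hes5 (4.17%) a kept one (20.3 and 16.8) and 4 (16.7%) a gained one, led by Meis2 (11.1).

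Sites were crowded at a few genes. Btn1a1 and Psd3 had 7 lost sites each, and Abt1 and the forkhead gene Foxp1 had 6 each, and the sites of Btn1a1 and Abt1 lay within the tRNA and histone gene cluster of chromosome 13. Aurkb, Borcs6 and Tmem107 shared 5 lost sites on chromosome 11. The most gained sites, 6, fell to Il3ra and Olfr31, which shared them between positions 14348425 and 14354363 of chromosome 14 with 3 lost and 2 kept sites. Dpp6 had 5 gained sites. Cadm4, Dpysl3, Flrt2, Lims1, Lin7c, Tll1 and Zfp428 each had 3 kept sites, and the highest day 1 scores among them were 163.4 at Lin7c and 145.6 at Lims1.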

How the data were processed

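ChIP-seq libraries of reprogrammed OG2-MEFs, 1 for each group, are described by the labels, and the 13 with a summit list were used. According to the methods, reads were aligned to mm10 with Bowtie2 2.2.5 and peaks and summits were called with MACS2, library by library. The deposited value of a summit is the −log10 of its unadjusted MACS2 p-value, as the authors' peak caller wrote it. Read totals were not used here, so the number of summits stands for the yield: 8216 at day 1 and 4854 at day 5, both from paired-end reads. A library with more reads gives higher scores and more summits, so differences between classes are also given within score quartiles of 1 library and kept sites by percentile, while raw scores of the 2 days are set side by side without scaling. The day 7 reads were shorter than those of days 1 and 5.

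Summits on the main chromosomes were matched to the nearest summit of the other day (100 bp). Motifs were searched on both strands within 100 bp in GRCm38, by consensus and number of mismatches, with windows 2 kb to each side as background. Sharing with other libraries used the same 100 bp, with points 10 kb to each side as background. Transcription starts came from GENCODE M21 and tRNA genes from RefSeq. Shares carry 95% Wilson intervals and their differences 95% Newcombe intervals, and differences within score quartiles are plain means over the 4 quartiles, with an interval from the normal approximation. Python 3.11.15, numpy 2.4.6, pandas 2.3.3, pysam 0.24.0 and matplotlib 3.10.9 were used, and the matching and intervals were tested on simulated data. Named sites are the 5 with the highest score in each class (for kept sites, by the mean of both scores), the 3 highest with SoxOct and with MORE by the same ranking, the 3 largest rises and falls in percentile among kept sites, and all sites within 50 kb of the listed genes. The sites, motifs and gene lists were chosen with earlier results of these data known, and the exact matches, tRNA genes, transgene exons and the count of sites found in any other list were added after values had been seen. Alternatives were other sharing distances, equally long lists of the strongest summits, scores from 10 upwards, other mismatch limits and windows, 1 summit per peak, a wider promoter, leaving out sites with both Sox2 and Oct6 antibody summits, all sequences and means within score quartiles. The 3 input libraries are not analysed here.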

Additional observations from a re-analysis of the deposited data

How the results depend on the processing

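The 19 differences and shares were each recomputed under the alternatives that apply to them, which gave 166 values. Of these, 147 kept their direction, and their interval excluded or included 0 as that of the reported value did. The difference in MORE between gained and lost sites, 1.07 points as reported, was 1.20 with sharing at 50 bp, 6.74 with scores of at least 10, 1.69 with 1 fewer mismatch and 1.28 in windows of 50 bp, each with an interval above 0, and it was −0.567 with equal numbers of summits and −9.28 with 1 more mismatch. For the octamer, 1.08 points became 2.58 with scores of at least 10, −0.0315 with equal numbers and −12.1 with 1 mismatch, and for SoxOct 4.34 points became 9.67 with scores of at least 10, 2.79 with 1 fewer mismatch and −5.64 with 1 more. The kept share of MORE minus SoxOct, 5.06 points, was 3.97 with sharing at 250 bp, 3.16 with equal numbers, 9.90 with 1 fewer mismatch, 4.09 in windows of 50 bp and 1.57 within score quartiles, each with an interval reaching below 0, and −0.401 with 1 more mismatch. Sox2 of day 1 at kept minus lost sites, 1.68 points, was 2.48 with sharing at 250 bp, −0.0944 with scores of at least 10 and −2.24 within score quartiles. Other values moved by over 1.5 times without changing direction. Oct4S151M at kept minus lost sites, 19.4 points, was 10.2 with sharing at 250 bp, 11.8 with scores of at least 10, 9.03 with equal numbers and 12.9 within quartiles. Within quartiles Oct4 of day 7 at kept minus gained sites went from 24.5 to 10.3 points (16.2 with scores of at least 10), and Oct4defSox2 of day 5 from 11.5 to 2.83. Sox2 of day 5 at gained minus kept sites, −8.44 points, was −5.11 with sharing at 50 bp and −4.38 with scores of at least 10. With 1 fewer and 1 more mismatch the kept share minus that without a POU motif was 33.1 and 13.3 points for SoxOct and 42.8 and 13.3 for MORE, and the Klf motif at gained minus lost sites was 9.72 points with 1 mismatch and 1.54 in windows of 50 bp. The cause of these shifts was not tested. Fewer mismatches could not be set for the octamer, AP-1 and Klf motifs, which allowed 0. With 1 library in each group no replicate could be left out. No paired analysis was possible because every library carries replicate number 1 and no group has a second one. Read totals were not used here, and a weak site missed by a shallow library cannot be told apart from a lost or gained one. Of day 1 sites in the lowest score decile 7.20% were shared.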
